A study of Mus musculus with 4 samples.

Results

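The genes Tgfb1, Tgfb2, Tgfb3, Inhba and Gdf10, which encode ligands of the TGF-beta superfamily, and the inhibitor and response genes Bambi, Id1, Id2, Id3 and Smad7 were followed through 4 arrays of cultured mammary fibroblasts. A probe set, the group of probes that reads 1 transcript, was taken when the platform annotation gave it a single gene and that gene was a member. This found 14 probe sets for the 10 members, out of 22690 probe sets and 12394 genes in the table. Each value is a level on the log2 scale, computed by the authors with RMA, so a difference of 1 is 2-fold and a difference of 2 is 4-fold.

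The fibroblasts came from female FVB/N mice aged 9 weeks and were used at the second passage. The 4 groups, each with 1 array, were PyMT Ets2-null (PyMT;Fsp-cre;Ets2db/loxP), PyMT Ets2-present (PyMT;Ets2db/loxP), normal Ets2-null (Fsp-cre;Ets2db/loxP) and normal Ets2-present (Ets2db/loxP) fibroblasts. PyMT is the polyoma middle T oncogene, carried here by the mammary epithelium under the MMTV promoter, so the fibroblasts of PyMT mice had grown beside oncogene-bearing epithelium. Every mouse had the Ets2db knockout allele, made by targeting the DNA-binding domain, beside a loxP allele that Cre deletes, so the Ets2-present groups kept a single working copy. Cre was driven by the promoter of Fibroblast Specific Protein 1 and was present in both Ets2-null groups and in neither Ets2-present group, so effects of Cre and of Ets2 loss cannot be told apart here. How many mice gave each RNA is not stated in the sources used here. Each comparison therefore sets 1 array against another, with no replicate error, no test and no p-value. These are bulk RNA samples, in which fewer cells of a type and less RNA per cell cannot be told apart.

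TGF-beta superfamily ligands are secreted dimers that bring together type I and type II receptor kinases on the cell surface. The TGF-betas and activins pass their signal mainly to Smad2 and Smad3, and the BMPs to Smad1, Smad5 and Smad9, which enter the nucleus with Smad4. Fibroblasts both make and answer these ligands, and TGF-beta is best known in stroma for driving matrix production and the contractile myofibroblast state. The pathway also switches on its own brakes: Smad7 blocks the type I receptors, and Bambi is a receptor look-alike without a kinase. The Id genes are direct BMP targets in many cell types, and their products bind basic helix-loop-helix factors and keep them off DNA.

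The promoters of 4 members are shown for a contrast in the difference between PyMT fibroblasts without and with Ets2. Tgfb1, Inhba and Id2 had the lowest values there among the members, while Gdf10 was nearly level. Tgfb1 passed the filter described below through the PyMT Ets2-present array alone. With low values raised to the filter level Tgfb1 was at -1.08, beside -1.75 for Inhba and -1.71 for Id2. Bambi, Tgfb3, Tgfb2 and Smad7 were then lower than Tgfb1 too. The sequences are from RefSeq on the mouse build GRCm38.p6 and run 5′ to 3′ on the gene's own strand, with 250 bases before and 50 bases after the start. Capitals mark GGAA or its reverse complement TTCC, the core that ETS factors bind. The Tgfb1 window is chr7:25686752-25687051, on the plus strand, that of Inhba chr13:16011601-16011900, plus, that of Id2 chr12:25096043-25096342, minus, and that of Gdf10 chr14:33923337-33923636, plus.
Tgfb1: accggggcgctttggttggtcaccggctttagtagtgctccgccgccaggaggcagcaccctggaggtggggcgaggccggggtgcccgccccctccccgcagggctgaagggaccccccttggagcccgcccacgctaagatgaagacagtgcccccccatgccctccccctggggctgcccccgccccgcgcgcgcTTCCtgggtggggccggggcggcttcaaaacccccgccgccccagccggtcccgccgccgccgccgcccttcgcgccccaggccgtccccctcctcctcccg
Inhba: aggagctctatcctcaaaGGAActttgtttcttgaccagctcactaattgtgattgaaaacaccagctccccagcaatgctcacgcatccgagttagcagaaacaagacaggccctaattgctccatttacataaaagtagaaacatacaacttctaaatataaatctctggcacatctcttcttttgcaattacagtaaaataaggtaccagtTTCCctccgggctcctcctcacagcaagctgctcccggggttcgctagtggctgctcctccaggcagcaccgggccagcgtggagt
Id2: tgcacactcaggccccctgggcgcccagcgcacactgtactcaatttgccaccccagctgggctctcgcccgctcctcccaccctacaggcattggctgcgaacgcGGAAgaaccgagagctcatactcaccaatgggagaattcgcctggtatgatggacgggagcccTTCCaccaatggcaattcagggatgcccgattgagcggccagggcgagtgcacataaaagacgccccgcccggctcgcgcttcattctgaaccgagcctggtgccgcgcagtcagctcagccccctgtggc
Gdf10: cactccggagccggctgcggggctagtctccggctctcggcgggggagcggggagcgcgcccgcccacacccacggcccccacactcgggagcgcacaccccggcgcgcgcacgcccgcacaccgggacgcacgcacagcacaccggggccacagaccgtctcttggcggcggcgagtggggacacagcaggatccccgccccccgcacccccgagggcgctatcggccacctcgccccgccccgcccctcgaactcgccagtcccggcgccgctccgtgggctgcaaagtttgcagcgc

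The core was found 1 time in the Tgfb1 window, 2 times in that of Inhba, 2 times in that of Id2 and 0 times in that of Gdf10. GGAA on either strand is common, being present in 96% of 32851 promoter windows of this length. CAGAC, the short Smad-binding element, was searched on both strands too and was found 0 times in the windows of Tgfb1, Inhba and Id2 and 1 time in that of Gdf10, beside 49.6% of all windows with at least 1 match. GGCGCC, a GC-rich element bound by BMP Smads, was found 1 time each in the windows of Id2 and Gdf10 and 0 times in those of Tgfb1 and Inhba, beside 11.9% of all windows. GGCGCC is its own reverse complement, and none of these motifs contains another. The windows of Tgfb1 and Gdf10 were GC-rich at 77% and 77.3%, against 63.3% for Id2 and 47.7% for Inhba. A match is a description of the letters and not a binding site. Promoters of 6 of the 10 members were examined, the other 2 being those of Tgfb2 and Id3, which held GGAA 2 and 4 times and CAGAC 2 times each. Tgfb3, Id1, Bambi and Smad7 were left out of the search. Of these, Tgfb3, Bambi and Smad7 were also at least 2-fold lower without Ets2 in PyMT fibroblasts. The matches therefore cover only part of the lowered members.

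The arrays were first checked against their labels. Ets2 has 1 probe set, at 11.22 in PyMT Ets2-null and 11.21 in PyMT Ets2-present fibroblasts, and at 11.89 in normal Ets2-null and 11.86 in normal Ets2-present fibroblasts. Whether its probes fall within the deleted part was not settled here, so it checks nothing about the deletion. All 10 fibroblast markers, among them Col1a1, Vim and Pdgfra, lay above the filter level of 4.63 on all 4 arrays. Their levels were not alike across arrays. Between PyMT and normal fibroblasts with Ets2, 7 of the 10 were lower, with a median of -0.10. Lum (-2.53), Pdgfra (-1.64) and Dcn (-1.11) were among these. Without Ets2, 4 of the 10 were lower, with a median of 0.22, Lum being at -5.80 and Dcn at -2.41. None of the 6 T, NK and B cell markers reached the filter level on any array. Of 14 macrophage and myeloid markers, 6 reached it in PyMT Ets2-null, 8 in PyMT Ets2-present, 7 in normal Ets2-null and 6 in normal Ets2-present fibroblasts, with mean levels of 4.90, 5.37, 4.50 and 4.50 in that order. Of 8 epithelial markers, 4, 2, 2 and 3 reached it in these groups in the same order, of 5 endothelial markers 1, 0, 1 and 1, and of 4 adipocyte markers 3 on each array. The filter level is the 40th percentile of the whole table, and a gene was kept when its highest value reached it; 8687 genes were kept, including all 10 members. Tgfb1 passed through the PyMT Ets2-present array alone, so a difference involving that array was built into its passing.

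Each of the 3 TGF-beta genes was highest in PyMT fibroblasts with Ets2. Tgfb1, whose product is the founding member of the family, read by 1 probe set, 1420653_at, had a log2 level of 3.07 in PyMT Ets2-null, 5.72 in PyMT Ets2-present, 4.15 in normal Ets2-null and 4.60 in normal Ets2-present fibroblasts. Only the PyMT Ets2-present value stood above the filter level, and the PyMT Ets2-null value was the lowest. Tgfb1 was thus 6.26-fold lower without Ets2 in PyMT fibroblasts and 1.37-fold lower in normal fibroblasts. When values under the filter level were raised to it, the PyMT difference was -1.08 in place of -2.65 on the log2 scale, and the normal difference was 0. Over the 7390 probe sets that were under the filter level on every array, the median level was 3.25 in PyMT Ets2-null and 3.08 in PyMT Ets2-present fibroblasts. Their median difference was 0.15. Tgfb1 was above the filter level in PyMT Ets2-present fibroblasts and so was not among them, and they cannot be set against its difference. Of the macrophage and myeloid markers, 8 of the 10 that were kept were lower without Ets2 in PyMT fibroblasts, with a median of -0.84. Among them were Msr1 at -2.28 and Csf1r at -1.93, while Lyz2 differed by -0.04. The kept markers Ptprc (0.59) and Fcer1g (0.05) were higher, Ptprc being kept through the PyMT Ets2-null array alone. The markers not kept, Itgam (0.61), Fcgr1 (0.545), C1qa (0.695) and C1qc (0.49), were all higher. Adgre1, which encodes the macrophage antigen F4/80, was at 4.52 in PyMT Ets2-null, 6.17 in PyMT Ets2-present, 4.27 in normal Ets2-null and 4.45 in normal Ets2-present fibroblasts. It was above the filter level in PyMT Ets2-present fibroblasts only, so it was kept through that array alone. Macrophages also make TGF-beta 1, and the part of these cells in the Tgfb1 values was not tested.

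Tgfb2, a ligand with roles in development and wound repair, has 3 probe sets that can be set against each other as readings of the same RNA. The brightest, 1450923_at, was at 10.34 in PyMT Ets2-null, 11.54 in PyMT Ets2-present, 9.01 in normal Ets2-null and 9.97 in normal Ets2-present fibroblasts. The probe set 1423250_a_at read 6.98 in PyMT Ets2-null, 8.49 in PyMT Ets2-present, 6.40 in normal Ets2-null and 7.38 in normal Ets2-present fibroblasts, and 1450922_a_at read 6.74, 7.83, 5.21 and 6.18 for these groups in the same order. All 3 gave the highest level in PyMT Ets2-present and the lowest in normal Ets2-null fibroblasts. Without Ets2 they differed by -1.51 to -1.09 in PyMT fibroblasts and by -0.98 to -0.97 in normal fibroblasts. Tgfb2 was therefore lower without Ets2 on both backgrounds, by 2.30-fold in PyMT and 1.95-fold in normal fibroblasts at the brightest probe set.

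Tgfb3, the third isoform, (1417455_at) was at 9.42 in PyMT Ets2-null, 10.69 in PyMT Ets2-present, 8.16 in normal Ets2-null and 8.82 in normal Ets2-present fibroblasts. The order of the arrays was that of the brightest Tgfb2 probe set. Without Ets2 it was 2.41-fold lower in PyMT and 1.59-fold lower in normal fibroblasts. With the oncogene it was 3.64-fold higher in Ets2-present fibroblasts, where 94 of the 8687 kept genes had a larger difference, and 2.40-fold higher in Ets2-null fibroblasts.

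Inhba encodes the subunit of activin A, a ligand that signals through the same Smads as TGF-beta. At its single probe set, 1422053_at, its levels were 9.71 in PyMT Ets2-null, 11.45 in PyMT Ets2-present, 9.36 in normal Ets2-null and 10.05 in normal Ets2-present fibroblasts. The PyMT Ets2-present array again stood highest, and PyMT Ets2-null lay under normal Ets2-present. Inhba was 3.36-fold lower without Ets2 in PyMT fibroblasts, with 141 kept genes lower still, and 1.61-fold lower in normal fibroblasts.

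Gdf10, also named BMP3b, is a divergent BMP family ligand, and it took a course of its own. At its single probe set, 1424007_at, its level was 5.33 in PyMT Ets2-null, 5.39 in PyMT Ets2-present, 12.09 in normal Ets2-null and 9.86 in normal Ets2-present fibroblasts. Both PyMT arrays lay far under both normal arrays, and the normal Ets2-null array was the highest. Between PyMT and normal fibroblasts Gdf10 was 108-fold lower without Ets2, the lowest of all 8687 kept genes in that difference, and 22.2-fold lower with Ets2, where 6 genes were lower. In normal fibroblasts it was 4.69-fold higher without Ets2, with 13 genes higher still. In PyMT fibroblasts the Ets2 difference was -0.06, at levels not far above the filter level. The study itself picked Gdf10 from these arrays as altered in normal Ets2-null fibroblasts, so its direction there is not independent evidence.

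**Figure D1:**
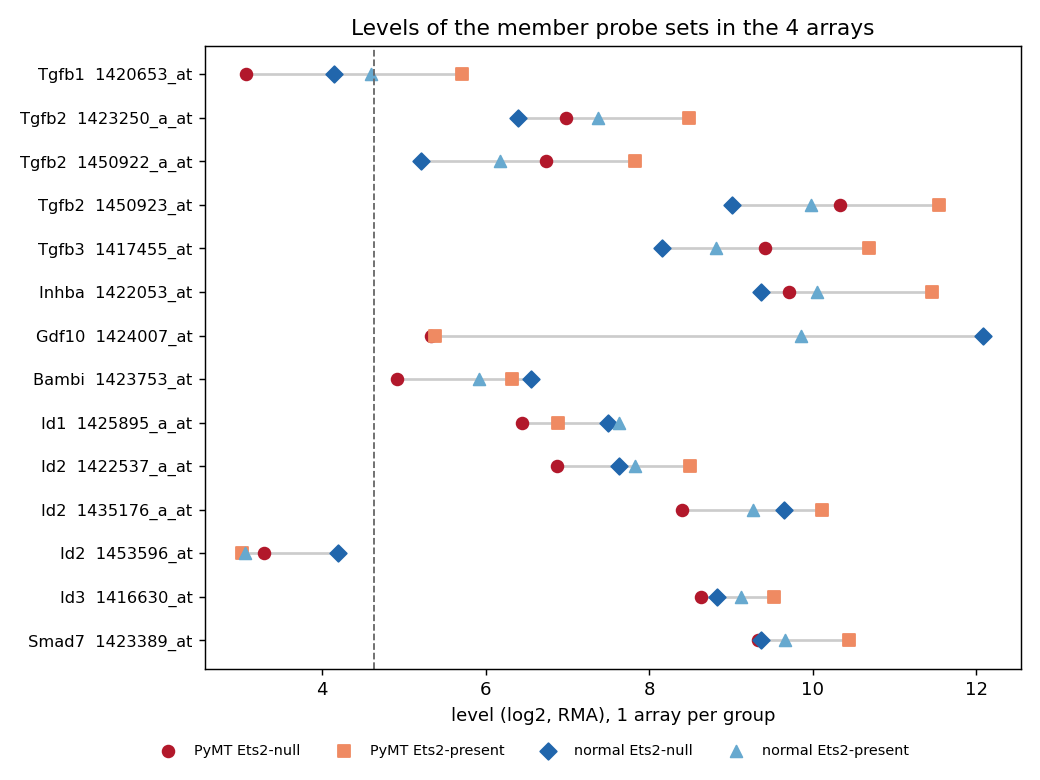
Log2 RMA level (horizontal) of each of the 14 member probe sets (rows) in PyMT Ets2-null, PyMT Ets2-present, normal Ets2-null and normal Ets2-present fibroblasts, 1 array per group, with the filter level of 4.63 as a dashed line. Levels are to be compared along a row only: the PyMT Ets2-present array stands rightmost for Tgfb1, Tgfb2, Tgfb3, Inhba, Id3, Smad7 and for both brighter Id2 probe sets, and Gdf10 spans the widest range.

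Among the inhibitors, Smad7 (1423389_at) was at 9.33 in PyMT Ets2-null, 10.44 in PyMT Ets2-present, 9.37 in normal Ets2-null and 9.66 in normal Ets2-present fibroblasts. The PyMT Ets2-present value stood apart while the other 3 lay within a narrow band. Smad7 was 2.15-fold lower without Ets2 in PyMT and 1.22-fold lower in normal fibroblasts. Bambi (1423753_at) was at 4.92 in PyMT Ets2-null, 6.32 in PyMT Ets2-present, 6.56 in normal Ets2-null and 5.92 in normal Ets2-present fibroblasts. The Ets2-null arrays were thus at both ends of its range, the PyMT one lowest and the normal one highest. Bambi was 2.65-fold lower without Ets2 in PyMT fibroblasts and 1.55-fold higher without Ets2 in normal fibroblasts.

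The Id genes differed among themselves. Id2 has 3 probe sets, of which 1435176_a_at was brightest, at 8.40 in PyMT Ets2-null, 10.11 in PyMT Ets2-present, 9.64 in normal Ets2-null and 9.27 in normal Ets2-present fibroblasts. The probe set 1422537_a_at read 6.88, 8.50, 7.63 and 7.83 for the same groups in the same order. Both had their lowest value in PyMT Ets2-null and their highest in PyMT Ets2-present fibroblasts. The third, 1453596_at, was under the filter level on all 4 arrays, at 3.29 in PyMT Ets2-null, 3.02 in PyMT Ets2-present, 4.20 in normal Ets2-null and 3.06 in normal Ets2-present fibroblasts, and its order was different. Without Ets2 in PyMT fibroblasts the differences were -1.71 and -1.63 at the brighter probe sets and 0.27 at the dim one. In normal fibroblasts they were 0.37, -0.20 and 1.14, so the sign of the Id2 difference there depended on the probe set.

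Id3 (1416630_at) was at 8.64 in PyMT Ets2-null, 9.52 in PyMT Ets2-present, 8.84 in normal Ets2-null and 9.12 in normal Ets2-present fibroblasts, the smallest range among the members at 0.89. It was 1.85-fold lower without Ets2 in PyMT fibroblasts, short of 2-fold. Id1 (1425895_a_at) was at 6.45 in PyMT Ets2-null, 6.89 in PyMT Ets2-present, 7.50 in normal Ets2-null and 7.63 in normal Ets2-present fibroblasts. In contrast to Id2 and Id3, both PyMT arrays lay under both normal arrays for Id1, by 2.08-fold without Ets2 and 1.68-fold with Ets2. Its Ets2 differences were -0.44 in PyMT and -0.13 in normal fibroblasts.

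The first comparison asks what Ets2 loss does in fibroblasts from tumour-prone glands. In PyMT fibroblasts all 10 members had a difference below 0, with a median of -1.24, beside a median of 0.02 over the 8687 kept genes, of which 51.3% lay above 0. At least 2-fold lower were 7 of the 10 (Tgfb1, Tgfb2, Tgfb3, Inhba, Bambi, Id2 and Smad7), where 7.77% of all kept genes were, and 0 were 2-fold higher, where 7.64% were. The members were chosen with earlier results of these data known. The shares of members here and below are therefore a description only. At least 4-fold lower was Tgfb1 alone, where 0.944% of kept genes were, and 0 members were 4-fold higher, where 0.691% were. With low values raised Tgfb1 was at -1.08 and no member was 4-fold lower. Without Tgfb1, 6 of the remaining 9 were at least 2-fold lower, with a median of -1.20. As a stand-in for error, this difference was compared between a gene's 2 brightest probe sets, which disagreed with an SD of 0.68 over 3378 genes. The values of Id1 (-0.44) and Gdf10 (-0.06) were smaller than that, and with each array centred on its median Gdf10 was at 0.05. That spread covers probes, not cultures or mice.

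In normal fibroblasts the same comparison gave smaller values. Of the 10 members, 7 were below 0 and 3 above, beside 52.7% and 47.1% of all kept genes. Their median was -0.29, beside -0.02 over all kept genes. No member was at least 2-fold or 4-fold lower, where 2.41% and 0.0806% of kept genes were, and Gdf10 alone was at least 2-fold higher, and also 4-fold, where 3.02% and 0.288% were. Tgfb2 (-0.97), Inhba (-0.69) and Tgfb3 (-0.67) were the lowest, each larger in size than the probe set SD of 0.48 for this difference. Tgfb1 (-0.46, from levels under the filter level), Smad7 (-0.29), Id3 (-0.29) and Id1 (-0.13) were smaller than that SD. The members above 0 were Gdf10 (2.23), Bambi (0.64) and Id2 (0.37).

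**Figure D2:**
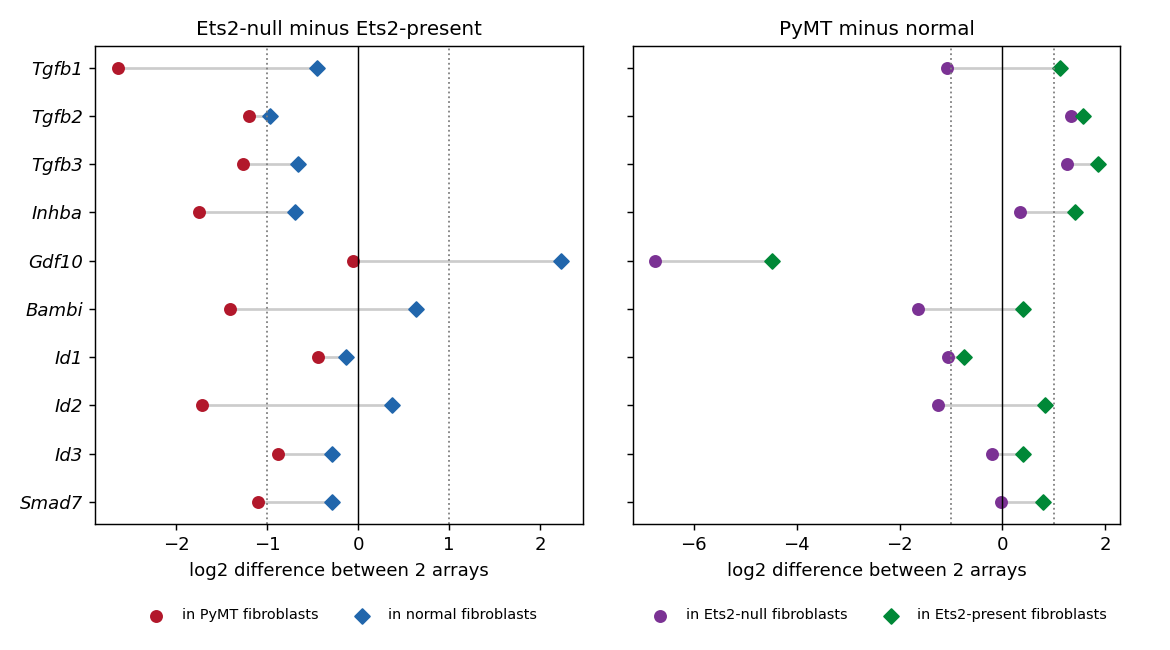
Log2 differences of the 10 members at the probe set of highest mean: Ets2-null minus Ets2-present in PyMT (circles) and normal (diamonds) fibroblasts on the left, and PyMT minus normal in Ets2-null (circles) and Ets2-present (diamonds) fibroblasts on the right, 1 array per group. Dotted lines mark 2-fold; on the left every circle lies below 0 and left of its diamond, and on the right Gdf10 lies at -6.76 and -4.47.

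Whether Ets2 loss went with a different change in PyMT and in normal fibroblasts was read from the difference of the 2 Ets2 differences, which uses all 4 arrays and was not tested. All 10 members were below 0 in it, with a median of -0.94, beside 0.04 over all kept genes, of which 46.9% were below 0. At least 2-fold lower were 5 of 10, where 11.2% of kept genes were, and at least 4-fold lower were 4 of 10, where 2.33% were. Those 4 were Gdf10 (-2.29), Tgfb1 (-2.19), Id2 (-2.08) and Bambi (-2.04), and Inhba followed at -1.06. No member was 2-fold or 4-fold higher, where 10.2% and 1.75% were. For Gdf10 the Ets2 difference was -0.06 in PyMT and 2.23 in normal fibroblasts. Tgfb2 had the value nearest to 0, at -0.24, its Ets2 difference being nearly the same on both backgrounds. The probe set SD of this measure was 0.86, which Smad7 (-0.82), Tgfb3 (-0.60), Id3 (-0.60) and Id1 (-0.31) did not reach. Without Tgfb1, 3 of 9 were at least 4-fold lower. With each array centred on its median 2 of the 10 were, Id2 and Bambi being those close to the threshold, and with low values raised Tgfb1 was at -1.08.

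**Figure D3:**
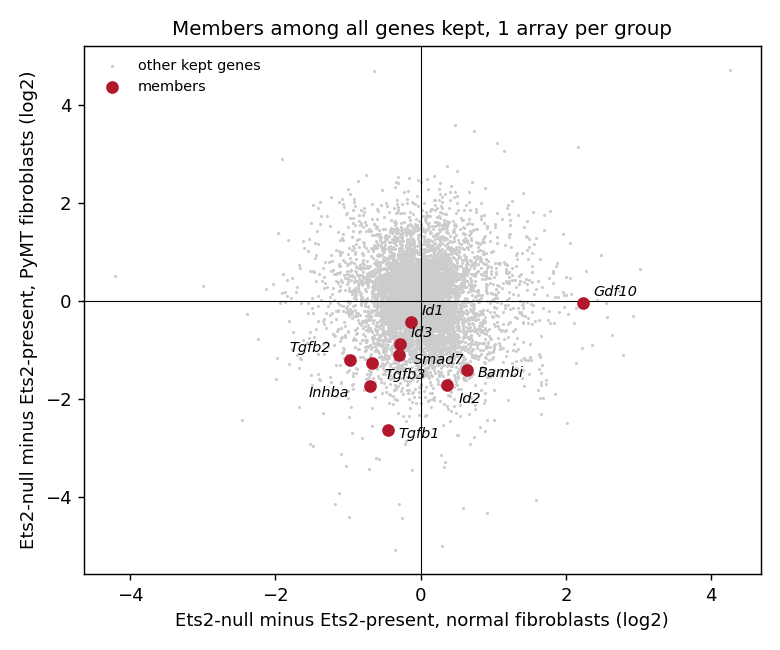
Ets2-null minus Ets2-present log2 difference in normal (horizontal) and in PyMT fibroblasts (vertical) for the 8687 kept genes (grey) and the 10 members (red, named), 1 array per group. The members lie at or under the horizontal zero line, with Tgfb1 lowest at -2.65 and Gdf10 far to the right at 2.23.

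The effect of oncogene-bearing epithelium was read by setting PyMT against normal fibroblasts. With Ets2, 8 of 10 members were higher in PyMT fibroblasts, with a median of 0.81, beside -0.01 over all kept genes, of which 49.5% were higher. At least 2-fold higher were Tgfb3 (1.86), Tgfb2 (1.57), Inhba (1.40) and Tgfb1 (1.11), so 4 of the 5 ligands and 0 of the 5 inhibitor and response genes, where 5.42% of kept genes were. Without Tgfb1, which was kept through the PyMT Ets2-present array alone, 3 of 9 members were at least 2-fold higher. Id2 (0.84), Smad7 (0.78), Bambi (0.40) and Id3 (0.40) were above 0 but under 2-fold. Gdf10 was the only member at least 2-fold or 4-fold lower, where 6.2% and 1.12% of kept genes were, and 0 members were 4-fold higher, where 0.84% were. The macrophage and myeloid markers were also higher in PyMT fibroblasts with Ets2, 9 of the 10 kept, with a median of 1.05, and so were the 3 kept adipocyte markers, with a median of 2.32 (Pparg 2.96, Fabp4 2.32 and Lpl 0.14). The part of these cells in the ligand values was not tested.

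Without Ets2, 7 of the 10 members were lower in PyMT than in normal fibroblasts and 3 were higher, beside 47.5% and 52.4% of all kept genes. Their median was -0.63 (-0.20 without Tgfb1, and -0.12 at the smallest over the alternatives run), beside 0.05 over all kept genes. All 5 inhibitor and response genes were below 0. Smad7 was at -0.03, and with each array centred on its median it was above 0. The ligands Tgfb2 (1.33) and Tgfb3 (1.26) were at least 2-fold higher in PyMT than in normal fibroblasts, where 9.69% of kept genes were, and Inhba was 0.35 higher. At least 2-fold lower were Gdf10 (-6.76), Bambi (-1.64), Id2 (-1.25), Tgfb1 (-1.08) and Id1 (-1.06), where 11.2% of kept genes were, and Gdf10 was also 4-fold lower, where 2.21% were. No member was 4-fold higher, where 1.29% were. For Tgfb1 both levels were under the filter level. In the same comparison the 3 kept adipocyte markers were higher, with a median of 1.62. Of the 5 kept epithelial markers 4 were higher and Krt18 was lower (-2.235), with a median of 1.02 over the 5. Epcam (1.02) and Krt14 (1.32) were kept through the PyMT Ets2-null array alone, so being higher there was built into their passing. The epithelial markers not kept, Cdh1, Krt8 and Cldn7, were higher too. The part of these cells in the members' values was not tested. With each array centred on its median, 3 members were at least 2-fold lower, Tgfb1 and Id1 being the ones close to the threshold. The 4 differences share arrays in pairs, so a value that is high in PyMT Ets2-present fibroblasts enters both as higher with the oncogene and as lower without Ets2. Over all kept genes 194 (2.23%) were at least 2-fold higher with the oncogene when Ets2 was present and at least 2-fold lower without Ets2 in PyMT fibroblasts, and these held 4 of the 10 members, Tgfb1, Tgfb2, Tgfb3 and Inhba, or 3 of 9 without Tgfb1. The PyMT Ets2-present array was the highest for 7 of the 10 members and for 22.8% of kept genes, and the PyMT Ets2-null array was the lowest for 7 members and for 32.9% of kept genes. Tgfb1 was in both counts. Its highest array was fixed by the filter, because it was kept through the PyMT Ets2-present array alone.

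The rest of the pathway was read from lists of ligands, receptors, Smads, latency proteins, antagonists and target genes. Among receptors, 15 listed genes had a probe set and 11 were kept. Without Ets2 in PyMT fibroblasts their median was 0.20, with 2 below 0 and 9 above, and Bmpr1b, a type I BMP receptor, was the only one at least 2-fold apart (-1.77, or -0.87 with low values raised). The TGF-beta receptor Tgfbr2 (0.13) and the co-receptor Tgfbr3 (0.13) were under 2-fold. Tgfbr1, the type I TGF-beta receptor, has 3 probe sets that disagreed in this comparison. The brightest, 1420895_at, was at 10.55 in PyMT Ets2-null and 11.08 in PyMT Ets2-present fibroblasts, a difference of -0.53, and 1420894_at was at 3.76 and 6.63 in these groups in the same order, a difference of -2.87, or -2.00 with low values raised. The third, 1420893_a_at, was under the filter level on all 4 arrays. The study picked Tgfbr1 from these arrays through 1420894_at, so that value is not independent evidence. These 3 receptors were named for their role after their values were seen. Between PyMT and normal fibroblasts with Ets2, Tgfbr3 (-1.84) and Tgfbr2 (-1.001) were at least 2-fold lower, and Eng, the co-receptor endoglin, was higher (1.56, or 1.18 with low values raised). Bmpr1b was kept through the PyMT Ets2-present array alone, and its difference of 1.31 was 0.87, under 2-fold, with low values raised. Without Ets2 the oncogene comparison gave Eng 3.38, or 1.87 with low values raised, Tgfbr3 -1.96, the type I receptor gene Acvrl1 1.43 and Tgfbr2 -1.003. In normal fibroblasts Eng differed by -1.12 without Ets2, at levels under the filter level.

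Of the Smads and their regulators, 12 genes were kept, and their median Ets2 difference in PyMT fibroblasts was 0.00, with 6 below 0 and 6 above. Nedd4l, a ubiquitin ligase that acts on activated Smads, was -1.25, and Smad3 was 1.23, or 0.51 with low values raised. The corepressor gene Tgif2 was lower in PyMT than in normal fibroblasts, with differences of -1.05 without Ets2 and -1.83 with Ets2. Of the genes for latency and activation of TGF-beta, 11 were kept with a median of -0.11; Bmp1, a protease that cleaves procollagens, was -1.04 and Itgb6, an integrin subunit that can free latent TGF-beta, was 1.18, or 0.01 with low values raised. Ltbp1, a latent TGF-beta binding protein, and the fibrillin gene Fbn2 were lower in PyMT than in normal fibroblasts. Ltbp1 differed by -1.88 without Ets2 and -1.62 with Ets2, and Fbn2 by -2.43 without Ets2 and -1.80 with Ets2. Mmp2, a gelatinase, differed by -1.04 between PyMT and normal fibroblasts without Ets2.

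Other ligand genes were mostly dim: of 19 with a probe set 4 were kept. Without Ets2 in PyMT fibroblasts 1 of these was below 0 and 3 above, with a median of 0.64, or 0.23 with low values raised. The 3 above 0, Bmp6, Bmp8a and Nodal, were kept through the PyMT Ets2-null array alone. Inhbb, the second activin subunit, was the only one above the filter level on every array, with a difference of -0.77 without Ets2 in PyMT fibroblasts. Inhbb and Nodal were named after their values were seen. Bmp6 was 1.15 there, or 0.22 with low values raised. Between PyMT and normal fibroblasts without Ets2, Bmp6 (1.84) and Bmp8a (1.13) were at least 2-fold higher, or 0.22 and 0.33 with low values raised. Of the secreted antagonists 11 were kept with a median of 0.09. Grem1, which binds BMPs, was at 6.11 in PyMT Ets2-null, 7.70 in PyMT Ets2-present, 9.36 in normal Ets2-null and 9.13 in normal Ets2-present fibroblasts, so the PyMT arrays lay under the normal ones and the PyMT Ets2-null array was lowest. Sostdc1, another BMP antagonist, differed by 1.29 without Ets2 in PyMT fibroblasts and by 1.35 between PyMT and normal fibroblasts without Ets2, both 0.36 with low values raised. The BMP antagonist gene Nog differed by 1.21 without Ets2 in normal fibroblasts, or 0.01 with low values raised. Fst, which encodes the activin-binding follistatin, differed by -0.10 without Ets2 in PyMT fibroblasts and was lower without Ets2 in normal fibroblasts (-1.41). Between PyMT and normal fibroblasts without Ets2, Fst was higher (1.81). Dcn, a proteoglycan that binds TGF-beta, was lower in PyMT than in normal fibroblasts, with differences of -2.41 without Ets2 and -1.11 with Ets2.

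Genes known to be induced by TGF-beta had medians near 0. Of 17 kept, 9 were below 0 and 8 above without Ets2 in PyMT fibroblasts, with a median of -0.01, and with the oncogene in Ets2-present fibroblasts 7 were below and 10 above, with a median of 0.16. At least 2-fold lower without Ets2 in PyMT fibroblasts were Snai1 (-1.88), a transcription factor of epithelial-mesenchymal transition, and Timp1 (-1.31), a metalloproteinase inhibitor. Snai2, a relative of Snai1, was higher (1.19). The myofibroblast genes Acta2 (-0.04) and Tagln (-0.27) and the matrix genes Col1a1 (0.29) and Ccn2 (0.01) were under 2-fold there; these 4 were named for their role after their values were seen. Tgfbi, a matrix protein named for its induction by TGF-beta, was lower in PyMT than in normal fibroblasts, with differences of -2.18 without Ets2 and -1.60 with Ets2, where Tgfb2 and Tgfb3 were higher. Junb, an AP-1 factor, differed by -1.28 between PyMT and normal fibroblasts with Ets2, or -0.94 with low values raised. In that same comparison Timp1 was at least 2-fold higher (1.05), from levels above the filter level on every array.

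BMP target genes had a median below 0 in the same comparison. Of 12 with a probe set 6 were kept, and these 6 were below 0 without Ets2 in PyMT fibroblasts, with a median of -0.93. Part of this came with the filter: Dlx3 was kept through the PyMT Ets2-present array alone and Sp7 through the Ets2-present arrays alone, and of the 6 genes not kept 5 were above 0. The 3 genes above the filter level on every array, Id4, Msx1 and Gata2, were below 0 with a median of -0.55. Sp7, the osteoblast factor osterix, was -3.38, the homeobox gene Dlx3 -2.36 and Id4, the fourth Id gene, -1.23. With low values raised Sp7 was -2.31 and Dlx3 -1.65, and Sp7 is among the genes the study picked from these arrays. Id4 was at 9.64 in PyMT Ets2-null, 10.87 in PyMT Ets2-present, 9.81 in normal Ets2-null and 9.77 in normal Ets2-present fibroblasts. As with Smad7, the PyMT Ets2-present array stood alone. With the oncogene in Ets2-present fibroblasts, Dlx3 (2.31, or 1.65 with low values raised), Atoh8 (1.97, or 1.36), Sp7 (1.55) and Id4 (1.11) were at least 2-fold higher and Gata2, a zinc finger factor, was lower (-1.04). The median of the list was 1.33 there, and 0.28 when no filter was applied and dim genes entered, as it was -0.38 in place of -0.93 for Ets2 loss in PyMT fibroblasts. No list was tested.

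**Figure D4:**
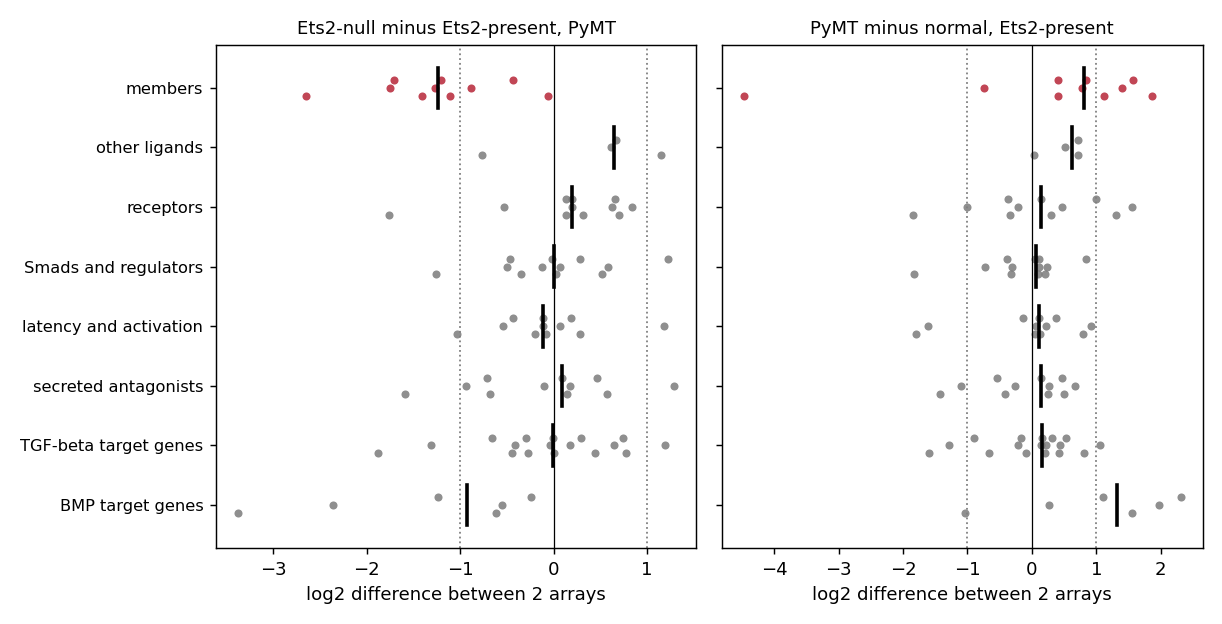
Log2 differences of the 10 members (red) and of the kept genes of each pathway list (grey), for Ets2-null minus Ets2-present in PyMT fibroblasts (left) and PyMT minus normal in Ets2-present fibroblasts (right), 1 array per group; bars are medians and dotted lines mark 2-fold. The medians of the members (-1.24 and 0.81) and of the BMP target genes (-0.93 and 1.33, over genes kept partly through the PyMT Ets2-present array) lie away from 0, and those of the TGF-beta target genes (-0.01 and 0.16) do not. Those of the other ligands (0.64 and 0.62) are over 4 genes, most of them kept through the PyMT Ets2-null array alone.

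Genes with the most similar course were sought by the Euclidean distance between log2 levels over the 4 arrays, each gene centred on its own mean, for the members that ranged over at least 2. Nearest to Tgfb1 were Msr1 (distance 0.32), a scavenger receptor of macrophages, Clcf1 (0.36), a cytokine, and Eva1a (0.39). Tgfb1 was itself under the filter level on 3 arrays, Msr1 on 1 and Eva1a on 2, so these distances rest partly on low values. Metrnl, a secreted protein, was the nearest gene to Tgfb3 (0.12) and the second nearest to Tgfb2 (0.21), and Tgfb3 was the third nearest to Tgfb2 (0.25). Lce1h, under the filter level on 3 arrays, was nearest to Tgfb2 (0.15) and second nearest to Tgfb3 (0.14), and Unc5b, a netrin receptor, was the third nearest to Tgfb3 (0.16). Nearest to Inhba were the semaphorin Sema7a (0.16), Phlda1 (0.17) and Atp1b1 (0.24), the last a subunit of the sodium pump. The nearest genes to Gdf10 were farther off, Egfl6 (under the filter level on 2 arrays) being at 1.40, Rerg at 1.54 and Lum, the proteoglycan lumican, at 1.57. With 4 points and 8687 genes such distances are a description only.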

How the data were processed

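The 4 arrays, 1 per group, were Affymetrix mouse expression arrays. The deposited table holds log2 levels that the authors computed with RMA (version not stated), which corrects the background, normalizes between arrays and summarizes each probe set; which arrays were normalized together is not stated. Groups were taken from the sample labels. Of 22690 probe sets, 20393 had a single gene in the platform annotation, 691 several and 1606 none; 20364 matched the mouse annotation by Entrez ID. Each gene was read from the probe set with the highest mean over the arrays, and kept when its highest value reached the 40th percentile of the table (4.63). Differences of log2 levels were counted at 2-fold and 4-fold. With 1 array per group, the number of arrays limits the precision and no test was run; the steps were tested on simulated data. The alternatives were cyclic loess (limma 3.58.1, R 4.3.3), median-centred arrays, the mean over probe sets, low values raised, no filter and the 60th percentile. The text names all members, and pathway genes kept and at least 2-fold apart in any of the 4 differences between 2 arrays (at most 6 of largest size per list and difference). Pathway genes at least 2-fold apart only in the difference between the Ets2 differences are not named. Also named are the 3 nearest genes of members ranging over at least 2. Genes outside this rule are marked. Members and lists were chosen with earlier results of these data known. Tables used Python 3.11.15 and pandas 2.3.3.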

Additional observations from a re-analysis of the deposited data

Results flagged for a closer look

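Bambi was singled out because its Ets2 differences had opposite signs on the 2 backgrounds, each larger in size than the SD between 2 probe sets of a gene. That SD was 0.68 in PyMT and 0.48 in normal fibroblasts over 3378 genes, while Bambi itself has 1 probe set. The Ets2 difference of Bambi was -1.41 in PyMT and 0.64 in normal fibroblasts, which gives -2.04 for the difference between them. With 1 array per group this difference was not tested.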

How the results depend on the processing

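The median of the members kept its sign in all 5 differences under every alternative run, and moved by less than the SD between probe sets. Centring each array on its median moved the median of all kept genes from 0.02 to 0.13 in the Ets2 difference in PyMT fibroblasts. It also left 3 members at least 2-fold lower in the PyMT difference without Ets2, and 2 at least 4-fold lower in the difference between the Ets2 differences. With the filter at the 60th percentile 8 members were kept, without Tgfb1 and Bambi. It left 0 members at least 4-fold lower in the Ets2 difference in PyMT fibroblasts, 3 at least 2-fold lower in the PyMT difference without Ets2, and 3 at least 2-fold and 2 at least 4-fold lower in the difference between the Ets2 differences. Raising low values left 0 members at least 4-fold lower in the Ets2 difference in PyMT fibroblasts. It set Tgfb1 at -1.08 there, at 0 in the PyMT difference without Ets2 and at -1.08 in the difference between the Ets2 differences. Averaging probe sets set Id2 at -1.02 in PyMT fibroblasts. The median of the other ligands, over 4 kept genes, was 1.05 in the PyMT difference without Ets2. With the stricter filter it was -0.51, which is the value of Inhbb, the only gene left. Of 120 counts over all genes 34 differed by more than 1.5 times, 18 of them under the stricter filter, 13 with low values raised and 3 with no filter. Under the stricter filter the counts lower and higher at 2-fold were 319 and 227 in place of 675 and 664 for Ets2 loss in PyMT fibroblasts, 59 and 82 in place of 209 and 262 for Ets2 loss in normal fibroblasts, 524 and 325 in place of 970 and 842 for PyMT against normal fibroblasts without Ets2, 299 and 203 in place of 539 and 471 with Ets2, and 485 and 340 in place of 969 and 886 for the difference between the Ets2 differences. At 4-fold they were 41 and 28 in place of 82 and 60 for Ets2 loss in PyMT fibroblasts, 2 and 16 in place of 7 and 25 in normal fibroblasts, and 91 and 46 in place of 202 and 152 for the difference between the Ets2 differences, and the higher counts were 69 in place of 112 without Ets2 and 42 in place of 73 with Ets2 for PyMT against normal fibroblasts. With low values raised, Ets2 loss gave 376 in place of 664 higher at 2-fold, and 42 and 29 in place of 82 and 60 at 4-fold, in PyMT fibroblasts, and 104 and 143 in place of 209 and 262 at 2-fold, and 1 and 16 in place of 7 and 25 at 4-fold, in normal fibroblasts. PyMT against normal fibroblasts then gave 523 in place of 842 higher at 2-fold and 68 in place of 112 at 4-fold without Ets2, and 42 in place of 73 at 4-fold with Ets2; the difference between the Ets2 differences gave 580 in place of 886 higher at 2-fold, and 110 and 64 in place of 202 and 152 at 4-fold. With no filter, 1029 in place of 664 were 2-fold higher with Ets2 loss in PyMT fibroblasts, 338 in place of 209 were 2-fold lower in normal fibroblasts, and 1495 in place of 886 were 2-fold higher in the difference between the Ets2 differences. Leaving out a replicate was not possible with 1 array per group. No paired analysis was possible because each group has 1 array.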
